A study of Rattus norvegicus with 9 samples.

Results

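The genes described here are named for core components of the spliceosome and the SR, hnRNP and other RNA-binding proteins that act with it. They were chosen by name from the deposited gene symbols: symbols beginning with Sfrs or Srsf (SR and SR-related proteins), Hnrnp or Hnrp (heterogeneous nuclear ribonucleoproteins, hnRNP), Snrp (proteins of the small nuclear ribonucleoproteins, snRNP), Sf3a or Sf3b, Prpf, Pcbp, or Rbm followed by a number, with Rbm20 left out. The rule gave 53 genes, each at 1 locus, among 24652 loci of at least 200 nt. Of the 53 genes, 48 reached a level of at least 1 in at least 3 libraries and were tested. Symbols are as deposited, and 12 of the 53 genes carried theirs in 1 library alone. Many familiar relatives, among them Srsf1 and Hnrnpa1, had no symbol matching the rule and were not analysed here.

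RNA was sequenced from the hearts of Sprague-Dawley rats in 9 libraries, 3 in each of 3 groups. Fetal libraries came from the ventricle at embryonic day 18, are titled as litters, and had no surgery. TAC libraries came from the adult left ventricle after transverse aortic constriction, which loads the heart with pressure. Sham libraries came from the adult left ventricle after the operation without the constriction. For the adult libraries it is not stated that they are different animals, nor how long after surgery they were taken, so the p-values measure only the spread between these libraries. Trizol was used for the fetal RNA and the Qiagen RNeasy Fibrous Tissue kit for the adult RNA, and for this reason age, the part of the ventricle and the RNA isolation cannot be told apart.

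The spliceosome removes introns from pre-mRNA. Its U1 and U2 snRNPs recognise the 5′ splice site and the branch point, and the U4, U5 and U6 snRNPs then join and rearrange to form the catalytic centre. Each of the U1, U2, U4 and U5 snRNAs carries a ring of Sm proteins, and the SF3A and SF3B complexes belong to the U2 snRNP. SR proteins mostly favour the use of nearby exons, while many hnRNP proteins repress exons or package the nascent RNA. Heart muscle changes the splicing of many sarcomeric and calcium-handling transcripts between fetal and adult life.

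Levels are given as rescaled FPKM, the deposited fragments per kilobase of transcript per 1000000 fragments after scaling the libraries to one another. Changes are log2 differences of the rescaled FPKM plus 1, which understates the change of low genes, with the standard error (SE). The test was limma across all 14113 loci that passed the filter, and a gene was called at a Benjamini-Hochberg adjusted p below 0.05 over all of them. The confidence bounds imply between 6.37 and 25.75 fragments per library in units of 1000000. Fetal libraries were the deepest as a group (17.55 to 25.75), against 6.37 to 11.65 in TAC and 11.89 to 21.58 in sham. Where a gene was listed with a single transcript, its median implied number in a library lay between 144 and 999 fragments. In bulk tissue, fewer cells of a type and less RNA per cell cannot be told apart.

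Most of these genes were higher in fetal ventricle than in sham ventricle. Of the 48 tested, 27 were called higher, 1 was called lower (Rbm18) and 20 were not called, beside 22.5% of all tested loci called higher, 23.2% lower and 45.7% in either direction. Against it, 56.2% of the 48 genes were called higher. Their median log2 change was 0.71, beside 0.04 over all tested loci, and 44 of the 48 changes were above 0. The fetal and sham libraries did not overlap for 32 genes that were higher in fetal libraries and for 1 that was lower, beside 29.3% and 28.8% of all tested loci.

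The summed level of all 53 genes lay between 3032 and 3299 in fetal libraries, between 1868 and 1979 in TAC libraries, and between 1792 and 1987 in sham libraries. No fetal library came near the adult range, and the TAC and sham ranges overlapped. The families differed in how many of their genes were called and in their median change. Called higher in fetal ventricle were 7 of 9 Sm and snRNP genes, 4 of 6 SF3 genes, 3 of 7 PRP genes, 3 of 5 SR genes, 3 of 4 hnRNP genes, 7 of 14 RBM genes and none of the 3 poly(C)-binding genes. The median log2 change was 1.19 for Sm and snRNP genes, 0.89 for SR, 0.80 for hnRNP, 0.62 for RBM, 0.52 for SF3, 0.40 for PRP and 0.03 for poly(C)-binding genes. The Sm and snRNP count and median include Snrpe, Snrpel and Snrpd2l, whose values are uncertain, as described below. Under equal library totals the median of all tested loci itself moved to 0.19, and under upper quartile scaling to 0.14. Taken relative to the median of all loci, the family medians other than that of the poly(C)-binding genes were above 0 under both scalings. The poly(C)-binding median lay between -0.01 and 0.01. Subtracting the median of all loci removes a shift that all loci share, so these relative values cannot serve as a separate check of the scaling.

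**Figure D1:**
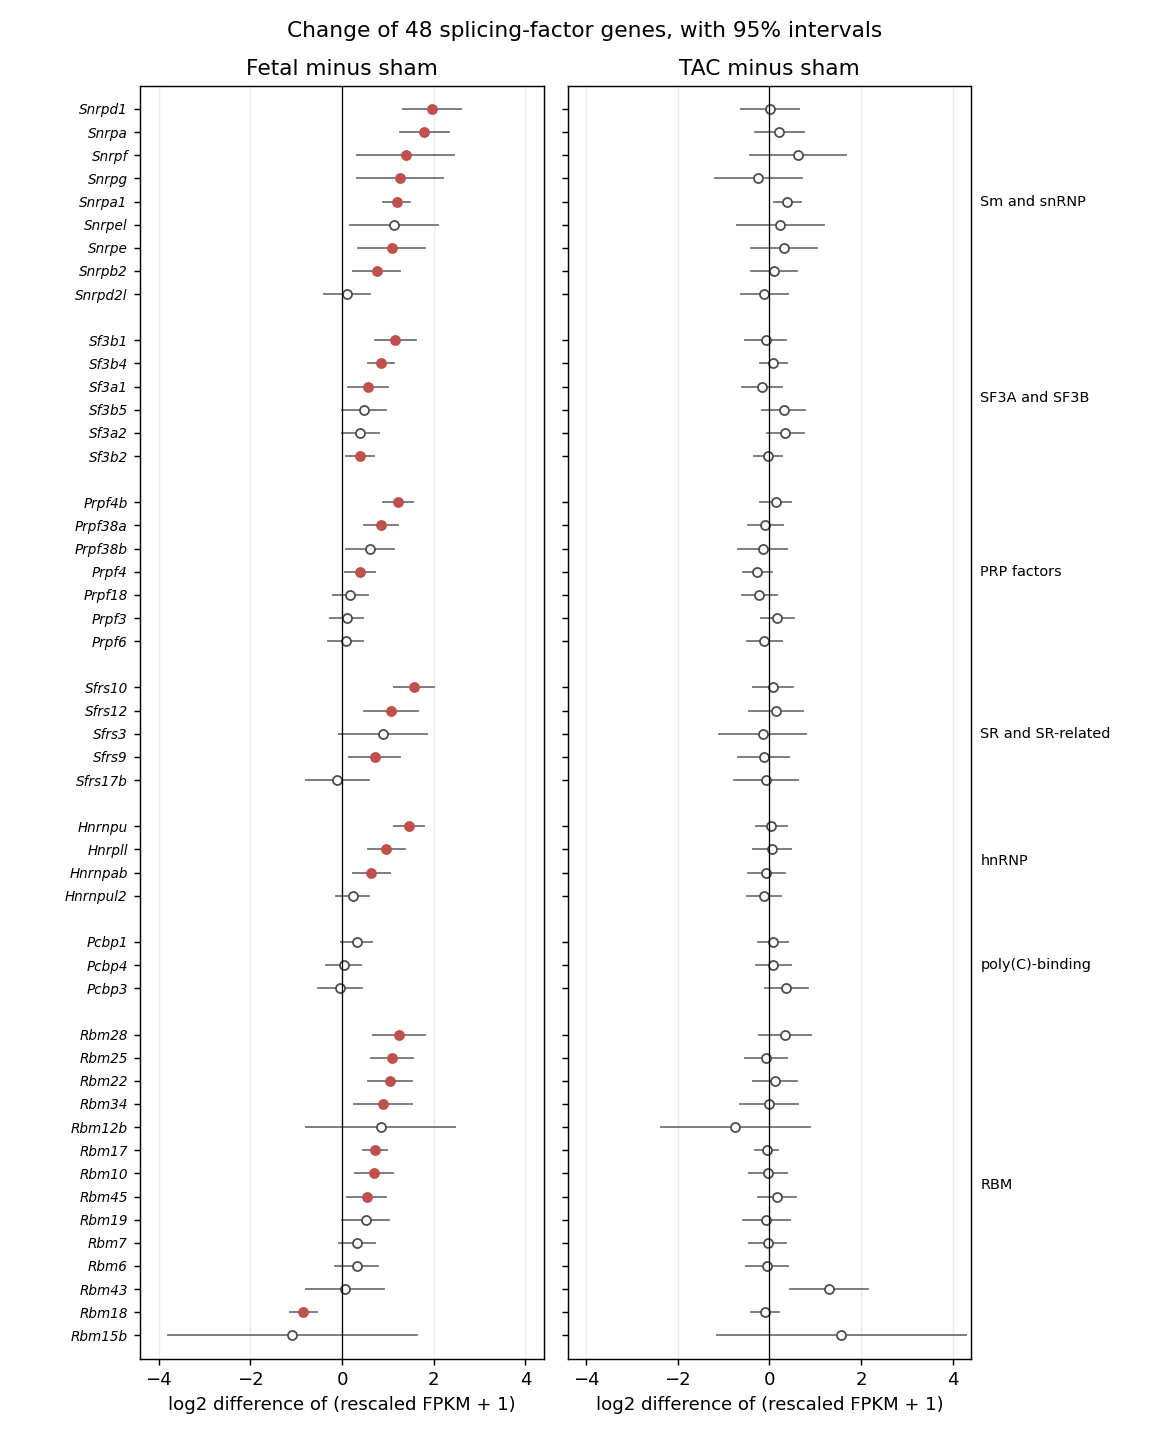
Log2 difference of each of the 48 tested genes, with its 95% interval, for fetal minus sham (left) and TAC minus sham (right), grouped by family. Filled points are genes called at an adjusted p below 0.05: 28 on the left, of which Rbm18 alone lies below 0, and none on the right.

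Levels of cell type markers also differed between the same groups. All 7 measured markers of dividing cells were called higher in fetal ventricle, with a summed level between 632 and 828 in fetal libraries, 66.8 and 73.8 in TAC libraries, and 54.4 and 73.4 in sham libraries. All 6 macrophage markers were called lower, with sums between 57.9 and 68.3 in fetal libraries, 293 and 486 in TAC libraries, and 274 and 506.5 in sham libraries. Of the other markers, 3 of 4 for lymphocytes, 4 of 6 for fibroblasts and 3 of 5 for endothelium were called lower in fetal ventricle, and 2 of 3 epicardial and 1 of 4 erythroid markers higher. One fibroblast marker, Postn, was called higher, and none of 3 smooth muscle markers was called. Summed levels of the fibroblast list lay between 394 and 597 in fetal libraries, 1452 and 1537 in TAC libraries, and 1014 and 1462 in sham libraries. Those of the endothelial list lay between 126 and 224 in fetal libraries, 249.5 and 359.5 in TAC libraries, and 217.5 and 332.5 in sham libraries. The lymphocyte sums lay between 4.08 and 4.89 in fetal libraries, against 49.2 to 72.9 in the adult libraries, and no measured marker of any list was at 0 in all libraries. The erythroid sums lay between 17010 and 27210 in fetal libraries and between 4960 and 12540 in the adult libraries, and the epicardial sums between 63.4 and 74.9 in fetal libraries and between 18.6 and 36.7 in the adult libraries. In TAC against sham ventricle no marker of any list was called by limma. Of the cardiomyocyte markers only Actc1 and Mb carried a symbol here, and Mb was called lower. Their sums were 14660, 137000 and 20110 in fetal replicates 1, 2 and 3. The sums lay between 41790 and 47890 in TAC libraries and between 41120 and 45820 in sham libraries. Fetal replicate 2 thus lay above every adult library and the other fetal libraries below. The part of these differences in the levels of the splicing genes was not tested.

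**Figure D2:**
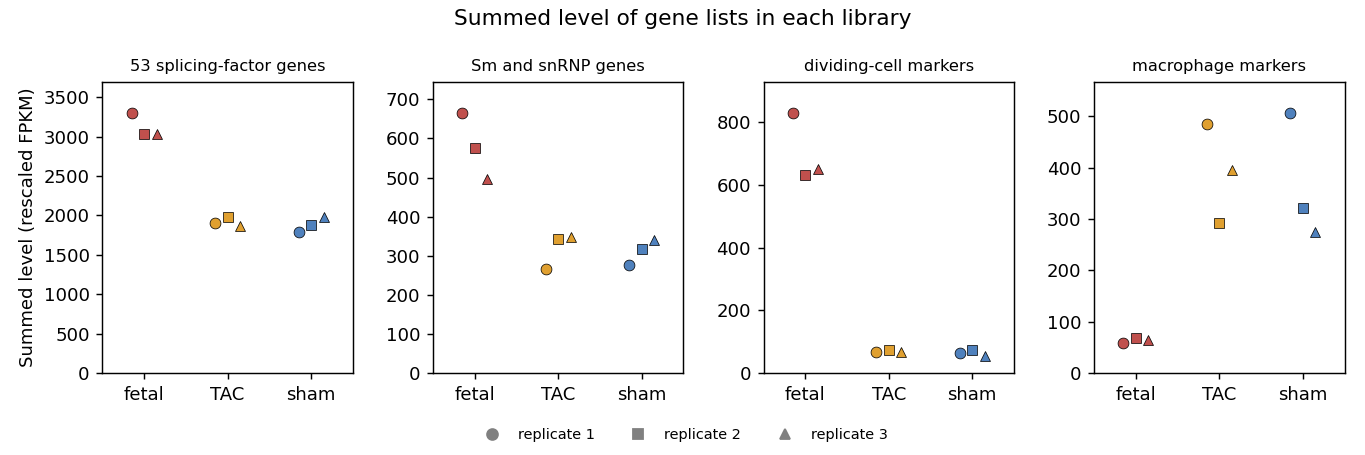
Summed rescaled FPKM in each library (points, shaped by replicate number) of all 53 genes, the 9 Sm and snRNP genes, 7 dividing-cell markers and 6 macrophage markers. The fetal points of the 53 genes (3032 to 3299) and of the dividing-cell markers (632 to 828) lie above every TAC and sham point, and those of the macrophage markers (57.9 to 68.3) lie below.

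Promoter letters are shown for the member with the largest called rise in each of the Sm and snRNP, SR and hnRNP families and for the single gene called lower, because these genes carry the main contrast. RefSeq gives a 300-base window, 250 bases before the start of the gene and 50 after, on build GRCr8, for 42 of the 53 genes on the chromosome where the deposited locus lies. The windows are written 5′ to 3′ on the strand of the gene, and capitals mark the motifs searched on both strands. They are chr18:1969424-1969723 (plus strand) for Snrpd1, chr11:92293192-92293491 (plus) for Sfrs10, chr13:92618531-92618830 (minus) for Hnrnpu and chr3:39884528-39884827 (minus) for Rbm18.
Snrpd1: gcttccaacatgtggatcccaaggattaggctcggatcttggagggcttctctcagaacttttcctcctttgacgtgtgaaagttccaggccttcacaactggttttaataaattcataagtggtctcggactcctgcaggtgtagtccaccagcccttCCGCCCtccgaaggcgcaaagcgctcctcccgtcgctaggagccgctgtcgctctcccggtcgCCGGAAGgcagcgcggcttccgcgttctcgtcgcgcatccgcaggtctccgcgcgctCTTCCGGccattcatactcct
Sfrs10: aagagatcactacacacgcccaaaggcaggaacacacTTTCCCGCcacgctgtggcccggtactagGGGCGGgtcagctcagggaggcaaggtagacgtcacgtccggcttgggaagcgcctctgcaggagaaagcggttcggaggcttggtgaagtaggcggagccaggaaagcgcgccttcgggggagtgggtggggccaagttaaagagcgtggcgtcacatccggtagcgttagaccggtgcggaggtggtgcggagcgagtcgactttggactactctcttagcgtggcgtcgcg
Hnrnpu: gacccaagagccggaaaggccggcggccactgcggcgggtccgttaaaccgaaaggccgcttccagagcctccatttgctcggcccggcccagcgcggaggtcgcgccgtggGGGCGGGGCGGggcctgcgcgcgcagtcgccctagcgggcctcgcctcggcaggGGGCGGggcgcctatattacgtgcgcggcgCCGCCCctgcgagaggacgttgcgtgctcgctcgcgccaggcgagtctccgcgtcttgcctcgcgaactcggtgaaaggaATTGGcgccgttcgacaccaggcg
Rbm18: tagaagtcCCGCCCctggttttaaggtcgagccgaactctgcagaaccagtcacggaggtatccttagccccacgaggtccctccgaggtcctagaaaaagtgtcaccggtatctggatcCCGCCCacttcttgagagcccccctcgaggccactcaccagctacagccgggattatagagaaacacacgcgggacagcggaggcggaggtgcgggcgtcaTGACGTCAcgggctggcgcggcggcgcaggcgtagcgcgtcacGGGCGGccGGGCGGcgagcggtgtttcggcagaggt

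The motifs searched were those named for ETS factors (CCGGAAG), YY1 (AAGATGGCG), E2F (TTTCCCGC or TTTGGCGC), the cyclic AMP response element (TGACGTCA), the E-box (CACGTG), the box spelled CCAAT, the GC box (GGGCGG) and the TATA box, spelled TATAAA. In the Snrpd1 window the ETS letters occurred on both strands, at 28 bases before and 29 bases after the start, beside 1 GC box. Sfrs10 held 1 GC box and the E2F letters TTTCCCGC. Hnrnpu held 4 GC boxes and 1 CCAAT box and was 73% G or C, with a pair of its GC boxes sharing 1 base. Rbm18, which went the other way, held the cyclic AMP response element and 4 GC boxes, so GC boxes stood in the windows of genes with opposite changes.

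Across the 42 windows the ETS letters occurred in 12 (28.6%), against 9.22% of all 27457 promoters in the table and 11.2% of 19005 protein-coding ones. The YY1 letters occurred in 5 (11.9%, against 1.93% of all and 2.29% of protein-coding promoters) and the GC box in 21 (50%, against 34.9% and 43.1%). Among the 24 genes with a window that were called higher in fetal ventricle, 7 held the ETS letters, close to the share among all 42. The E-box occurred in 7 of 42 windows (16.7%, against 6.65% of all and 7.27% of protein-coding promoters) and in 0 of those 24. Against protein-coding promoters, CCAAT occurred in 17 (40.5%, against 38.4%), TATAAA in 3 (7.14%, against 13.1%), the cyclic AMP response element in 2 (4.76%, against 2.22%), TTTCCCGC in 1 (2.38%, against 1.32%) and TTTGGCGC in 1 (2.38%, against 0.652%). Median G and C content was 59.2% in the 42 windows, 52.3% in all promoters and 55.3% in protein-coding ones. These matches describe letters in the windows and show no binding.

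Sm and snRNP genes. Snrpd1, at chr18:2001140-2011674 on rn4, encodes the Sm ring protein D1. It had 99.1, 46.5 and 60.15 rescaled FPKM in fetal libraries, 15.03, 16.7 and 16.7 in TAC libraries, and 17.2, 19.5 and 12.2 in sham libraries. Every fetal library lay above every adult one, with fetal replicate 1 far above the other two fetal libraries. The fetal mean was 4.21 times the sham mean, the largest ratio among the 48 tested genes (log2 1.96, SE 0.28, limma adjusted p = 0.00063). Snrpa encodes the A protein of the U1 snRNP. Its levels were 41.3, 50.9 and 47.3 in fetal libraries, 10.05, 19.9 and 16.0 in TAC libraries, and 11.1, 14.0 and 13.01 in sham libraries, with no overlap between fetal and adult libraries. The change was 1.79 (SE 0.24, limma adjusted p = 0.000421). When the reference transcripts alone were summed it was 0.63 and no longer called (adjusted p = 0.354).

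Snrpa1 and Snrpb2 encode the A′ and B″ proteins of the U2 snRNP, which bind together. Snrpa1 had 38.6, 36.2 and 38.2 in fetal libraries, 21.6, 22.0 and 19.9 in TAC libraries, and 15.55, 17.9 and 14.5 in sham libraries. The 3 groups did not overlap, with fetal libraries highest and sham libraries lowest (fetal minus sham 1.19, SE 0.13, limma adjusted p = 0.000144). Snrpb2 averaged 52.0 ± 13.8 in fetal libraries, 31.9 ± 4.19 in TAC libraries and 29.8 ± 4.87 in sham libraries (SD, n = 3 each), and was called higher against sham (0.76, SE 0.22, limma adjusted p = 0.0231). Its fetal replicate 2, at 36.2, lay just below the highest TAC library at 36.65. Leaving out fetal replicate 1 or 3 or sham replicate 1 or 3 ended that call (adjusted p between 0.0671 and 0.0838).

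Snrpf and Snrpg encode the Sm ring proteins F and G. Snrpf had 74.97, 28.7 and 25.9 in fetal libraries, 28.9, 22.3 and 16.8 in TAC libraries, and 23.9, 8.996 and 12.6 in sham libraries. Replicate 1 was the highest library in each group, the fetal and sham groups did not overlap, and the fetal and TAC groups did. The fetal minus sham change was 1.39 (SE 0.46, limma adjusted p = 0.0374), and leaving out fetal replicate 1, sham replicate 2 or 3, or TAC replicate 2 ended the call (adjusted p between 0.0535 and 0.119). Snrpg had 114, 123.3 and 57.6 in fetal libraries, 16.7, 39.9 and 49.6 in TAC libraries, and 38.0, 34.7 and 42.5 in sham libraries. The fetal libraries lay above all adult ones (1.26, SE 0.41, limma adjusted p = 0.0348). That call was lost without fetal replicate 1 or 2 or any one of the sham libraries (adjusted p between 0.0636 and 0.109).

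The remaining 3 genes of this family may share reads with near-identical copies, and their values are uncertain. Snrpe, named for the Sm protein E, was measured at chr8:125713248-125713526 on rn4, a single block of 279 nt, and RefSeq places the gene of that name on another chromosome. It was called higher in fetal ventricle (1.08, SE 0.32, limma adjusted p = 0.0225), and the call was lost without fetal replicate 1 or 2 or sham replicate 1 or 3 (adjusted p between 0.0551 and 0.0744). Snrpel, also a single block of 279 nt, is a pseudogene in RefSeq, where it is named Snrpe-ps1, and it was not called (1.14, SE 0.42, adjusted p = 0.0533). It was called under equal library totals, upper quartile scaling, and without TAC replicate 3 or sham replicate 2 (adjusted p between 0.0121 and 0.0449). Snrpd2l, a name that RefSeq gives to a pseudogene on another chromosome, had the highest mean level of the family. Its levels were 145.5, 176 and 136 in fetal libraries, 108, 145 and 139 in TAC libraries, and 116, 122.6 and 193 in sham libraries, so the groups overlapped (0.12, SE 0.22, limma adjusted p = 0.705).

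**Figure D3:**
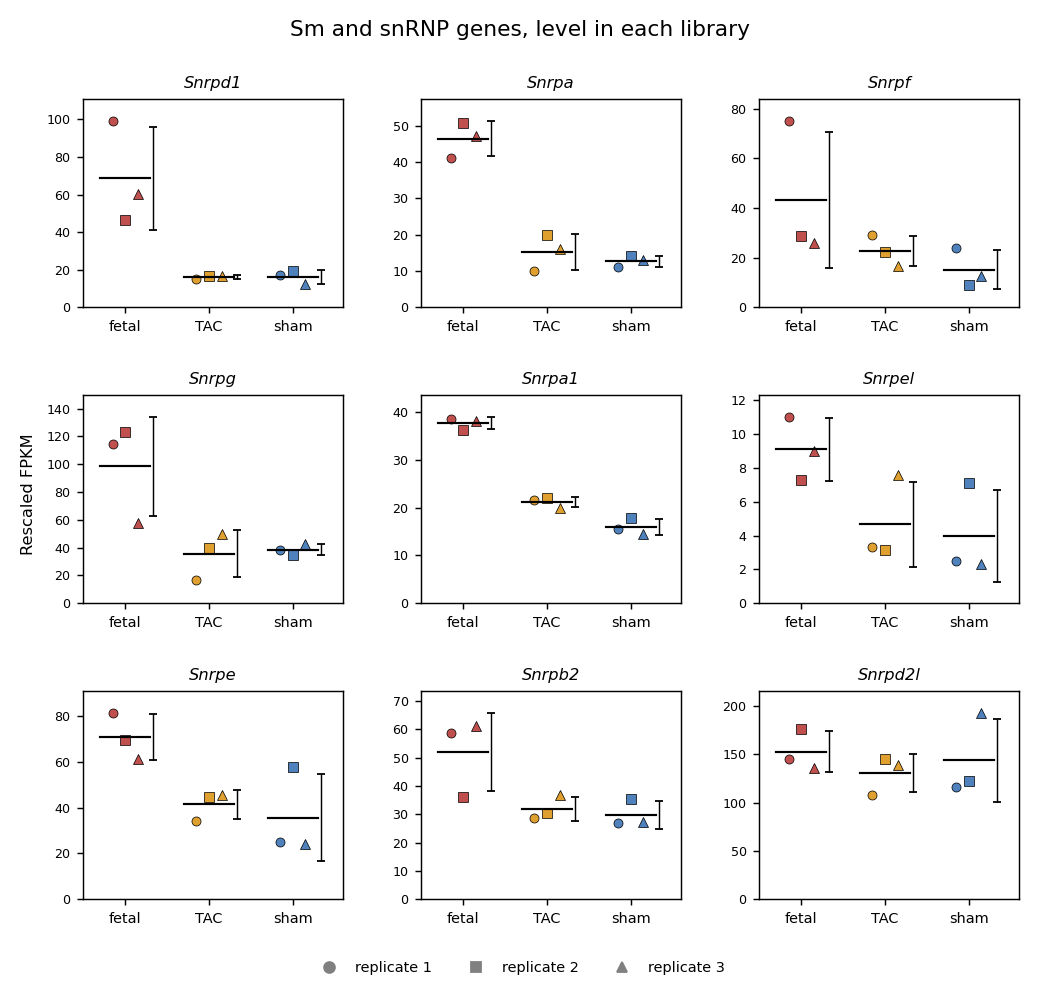
Rescaled FPKM of the 9 Sm and snRNP genes in each library (points, shaped by replicate number), with the group mean (line) and SD (bar), in order of the fetal minus sham change. Snrpd1 shows 46.5 to 99.1 in fetal libraries and 12.2 to 19.5 in all adult libraries, while the 3 groups of Snrpd2l overlap.

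SF3 genes. Sf3b1 encodes the SF3B subunit that clamps the branch-point helix. It had the highest mean of the family over all 9 libraries, but in TAC (63.1 against 90.7) and sham libraries (67.1 against 74.8) its mean was below that of Sf3b5. Sf3b1 had 210.3, 125 and 132 rescaled FPKM in fetal libraries, 66.1, 62.0 and 61.2 in TAC libraries, and 71.1, 61.4 and 68.8 in sham libraries. Fetal replicate 1 was the highest, and no fetal library overlapped an adult one (1.17, SE 0.20, limma adjusted p = 0.00156). Sf3b4, another SF3B subunit, had 36.1, 32.8 and 34.4 in fetal libraries, 19.3, 20.05 and 20.1 in TAC libraries, and 16.9, 21.0 and 18.3 in sham libraries (0.85, SE 0.13, limma adjusted p = 0.000873). The fetal and adult libraries did not overlap for this gene either.

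Sf3a1 and Sf3b2 were called with smaller changes. Sf3a1, a subunit of SF3A, had 30.6, 37.6 and 33.1 in fetal libraries, 21.0, 20.4 and 18.4 in TAC libraries, and 20.2, 18.6 and 29.8 in sham libraries (0.57, SE 0.19, limma adjusted p = 0.0375). Sham replicate 3 came within 1 unit of the lowest fetal library, and with the replicate number as a block the call was lost (adjusted p = 0.054). It was also lost when any one library was left out except TAC replicate 1 or sham replicate 3 (adjusted p between 0.0503 and 0.119). Sf3b2 had 88.15, 85.9 and 89.7 in fetal libraries, 76.6, 56.0 and 64.55 in TAC libraries, and 65.4, 63.7 and 71.2 in sham libraries (0.39, SE 0.13, limma adjusted p = 0.0419). Its fetal libraries lay above all adult libraries, and the call was lost without any one fetal or sham library or TAC replicate 3 (adjusted p between 0.0538 and 0.11). Sf3b5 (0.48, adjusted p = 0.0924) and Sf3a2 (0.40, adjusted p = 0.0944) were not called. Sf3b5 was called under equal library totals (adjusted p = 0.0304) and without sham replicate 2 (adjusted p = 0.0322), and Sf3a2 under upper quartile scaling (adjusted p = 0.0461).

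PRP factors. Prpf4b encodes a kinase that acts on the U4/U6.U5 particle before activation. It had 47.1, 42.5 and 55.0 rescaled FPKM in fetal libraries, 24.0, 22.5 and 19.6 in TAC libraries, and 20.9, 18.4 and 20.7 in sham libraries, with a wide gap between fetal and adult libraries (1.22, SE 0.14, limma adjusted p = 0.000247). Summing the reference transcripts alone gave a larger change that was not called (2.08, adjusted p = 0.246). Prpf38a, which is needed for activation of the spliceosome, had 38.9, 34.8 and 47.97 in fetal libraries, 21.0, 17.5 and 23.5 in TAC libraries, and 21.2, 21.7 and 22.85 in sham libraries (0.85, SE 0.16, limma adjusted p = 0.00319). Again no fetal library overlapped an adult one.

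Prpf4, a protein of the U4/U6 snRNP, had 21.7, 19.8 and 21.1 in fetal libraries, 11.5, 14.5 and 12.6 in TAC libraries, and 15.8, 16.6 and 14.5 in sham libraries. The groups were ordered fetal, sham, TAC without overlap, but the fetal minus sham call was close to the threshold (0.40, SE 0.14, limma adjusted p = 0.0473). It was lost with the replicate block (adjusted p = 0.076) and under equal library totals (adjusted p = 0.0689). It was also lost without any one fetal or sham library or TAC replicate 3 (adjusted p between 0.064 and 0.122). Prpf38b, a paralog of Prpf38a and the most abundant gene of the family, had 53.3, 50.5 and 55.3 in fetal libraries, 29.9, 30.9 and 32.3 in TAC libraries, and 30.4, 25.7 and 52.2 in sham libraries. Sham replicate 3 lay among the fetal values, and the gene was not called (0.61, SE 0.23, limma adjusted p = 0.0617). It was called with the replicate block (adjusted p = 0.0443), under upper quartile scaling (0.71, adjusted p = 0.0322) and without sham replicate 3 (0.90, adjusted p = 0.00179). Prpf18, a second-step factor, and Prpf3 and Prpf6, of the U4/U6 and U5 particles, had changes between 0.08 and 0.18 and were not called.

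SR and SR-related genes. Sfrs10, listed by RefSeq as Tra2b, encodes an SR-like activator that binds purine-rich exonic enhancers. Its levels were 147, 92.6 and 88.5 rescaled FPKM in fetal libraries, 38.55, 35.4 and 37.3 in TAC libraries, and 37.3, 34.0 and 34.3 in sham libraries. The adult libraries spanned less than 5 units and lay far below the fetal ones (fetal minus sham 1.57, SE 0.19, limma adjusted p = 0.000277). Sfrs12, listed as Srek1, had 29.3, 41.97 and 38.55 in fetal libraries, 19.0, 24.2 and 13.9 in TAC libraries, and 19.4, 12.2 and 19.8 in sham libraries (1.07, SE 0.26, limma adjusted p = 0.00989). Fetal and adult libraries did not overlap, and the call was lost when the reference transcripts alone were summed (0.57, adjusted p = 0.865).

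Sfrs9, now Srsf9, had 21.2, 26.4 and 18.85 in fetal libraries, 10.8, 17.3 and 8.68 in TAC libraries, and 13.5, 12.4 and 13.01 in sham libraries (0.71, SE 0.24, limma adjusted p = 0.0396). The fetal libraries lay above the adult ones, and the call was lost without any one fetal or sham library (adjusted p between 0.0529 and 0.123). Sfrs3, now Srsf3, the smallest classical SR protein, was the most abundant of the family. It had 233, 101 and 139 in fetal libraries, 90.7, 106 and 38.2 in TAC libraries, and 64.0, 93.2 and 85.0 in sham libraries. The fetal libraries lay above the sham ones, but their spread was wide and the gene was not called (0.89, SE 0.42, limma adjusted p = 0.116). Without TAC replicate 3, which enters only the shared spread of that comparison, it was called (adjusted p = 0.0482). Sfrs17b was low in all 9 libraries, between 1.99 and 4.89, and was not called (-0.10, SE 0.30).

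hnRNP genes. Hnrnpu, at chr13:93978868-93987654 on rn4, encodes a nuclear scaffold protein that binds RNA and chromatin. It had 309, 306 and 389 rescaled FPKM in fetal libraries, 116, 135 and 120.4 in TAC libraries, and 127, 128 and 106 in sham libraries. The fetal mean was 2.78 times the sham mean, and the lowest fetal library was more than double the highest adult one (1.46, SE 0.15, limma adjusted p = 9.93e-05). Hnrpll, known for regulating the splicing of Ptprc in lymphocytes, had 42.4, 47.9 and 42.9 in fetal libraries, 17.5, 27.4 and 25.3 in TAC libraries, and 24.9, 20.8 and 21.0 in sham libraries. It was called higher with no overlap (0.97, SE 0.18, limma adjusted p = 0.00268). The call was lost when the reference transcripts alone were summed (2.59, adjusted p = 0.101). In the same comparison 3 of 4 lymphocyte markers were called lower, and a relation between them and Hnrpll was not tested.

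Hnrnpab had the highest mean level of the 48 genes. It had 404, 434 and 317 in fetal libraries, 263, 218 and 220.4 in TAC libraries, and 216, 231 and 293 in sham libraries. The fetal libraries lay above the adult ones by a narrow margin (0.64, SE 0.18, limma adjusted p = 0.0181), and leaving out fetal replicate 1 or 2 or sham replicate 1 or 2 ended the call (adjusted p between 0.0554 and 0.0623). Hnrnpul2, a paralog of Hnrnpu, averaged 63.8 ± 6.93 in fetal libraries, 49.5 ± 4.12 in TAC libraries and 54.4 ± 10.1 in sham libraries (SD, n = 3 each) and was not called (0.24, SE 0.16, limma adjusted p = 0.259). The difference between the changes of Hnrnpu and Hnrnpul2 was not tested.

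Poly(C)-binding genes. These proteins bind C-rich RNA and act in splicing, stability and translation. None of the 3 was called in fetal against sham ventricle. Pcbp1, the most abundant, had 216, 295 and 279.8 rescaled FPKM in fetal libraries, 226, 221 and 215 in TAC libraries, and 211, 222.5 and 196 in sham libraries. Fetal replicate 1 lay within the adult range and the other two fetal libraries above it (0.32, SE 0.14, limma adjusted p = 0.107). Without fetal replicate 1 the gene was called (0.45, adjusted p = 0.0283), as it was under upper quartile scaling (0.42, adjusted p = 0.0439). Pcbp3 (-0.04, 95% interval -0.51 to 0.43) and Pcbp4 (0.03, 95% interval -0.35 to 0.42) had intervals within a 2-fold change in either direction.

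RBM genes. Rbm28 encodes a nucleolar protein that in human cells associates with spliceosomal snRNAs. It had 18.5, 17.6 and 11.8 rescaled FPKM in fetal libraries, 6.41, 11.3 and 7.02 in TAC libraries, and 5.55, 6.58 and 6.16 in sham libraries. The lowest fetal and the highest TAC library nearly met, and fetal and sham libraries were well apart (1.24, SE 0.25, limma adjusted p = 0.00396). Summing the reference transcripts alone turned the change to -0.86 (adjusted p = 0.584). They held 40.2%, 0% and 54.2% of the locus value in fetal libraries and 100% in each sham library. Rbm25, which in human cells associates with the U1 snRNP, had 38.55, 34.2 and 51.9 in fetal libraries, 18.0, 14.5 and 21.55 in TAC libraries, and 16.7, 19.9 and 19.9 in sham libraries, without overlap between fetal and adult (1.08, SE 0.20, limma adjusted p = 0.0027). 

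Rbm22, a component of the activated spliceosome, had 24.2, 23.4 and 34.3 in fetal libraries, 11.9, 17.7 and 12.2 in TAC libraries, and 11.1, 14.0 and 12.6 in sham libraries (1.04, SE 0.21, limma adjusted p = 0.00421). Rbm34 had 10.2, 11.2 and 10.9 in fetal libraries, 3.56, 7.73 and 5.23 in TAC libraries, and 4.85, 4.16 and 7.26 in sham libraries (0.90, SE 0.28, limma adjusted p = 0.0269). Fetal and adult libraries did not overlap for either gene. The call of Rbm22 was lost with reference transcripts alone (0.97, adjusted p = 0.204), and that of Rbm34 without any one fetal library or sham replicate 1 or 2 (adjusted p between 0.0572 and 0.0875). Also called higher were Rbm17 (0.72), a factor in 3′ splice site choice, Rbm10 (0.70) and Rbm45 (0.54). Rbm10 lost its call without fetal replicate 2 (adjusted p = 0.0509). Rbm45 lost its call with the replicate block (adjusted p = 0.0563) and when any library was left out except TAC replicate 1 or sham replicate 2 (adjusted p between 0.0544 and 0.122).

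Rbm18 went the other way. It had the highest mean of the RBM genes over all libraries and in each adult group, while in fetal libraries Rbm17 averaged 59.0 against 39.4 for Rbm18. Rbm18 had 43.05, 39.3 and 35.9 in fetal libraries, 64.4, 62.9 and 74.05 in TAC libraries, and 65.6, 78.9 and 70.7 in sham libraries. All fetal libraries lay below all adult libraries, the fetal mean was 0.55 of the sham mean (-0.85, SE 0.13, limma adjusted p = 0.00102), and Rbm18 was called lower under every alternative run. The 6 other tested RBM genes were not called. Of these, Rbm15b, a subunit of the complex that methylates adenosines in mRNA, is listed at 0 in fetal replicates 2 and 3 and sham replicate 2, and Rbm12b at 0 in TAC replicate 1. Their intervals were the widest of the 48 (Rbm15b -3.80 to 1.63 and Rbm12b -0.78 to 2.47), and Rbm12b was called without TAC replicate 1 (adjusted p = 0.042).

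The 5 genes that did not pass the filter were Rbm11, Rbm35b, Rbm44, Rbm46 and Sfrs12ip1. Rbm35b, listed by RefSeq as the epithelial splicing factor Esrp2, is listed at 0 in all 9 libraries. Rbm44 did not exceed 0.74 and Rbm11 did not exceed 2.21 in any library. Rbm46, known from germ cells, had 3.39, 0.78 and 1.87 in fetal libraries, is listed at 0 in all TAC libraries, and had 0.105, 0 and 0.146 in sham libraries. Sfrs12ip1, the partner of Sfrs12, had 35.4, 0 and 40.5 in fetal libraries and is listed at 0 in all adult libraries. Its reference transcript held 0% of the value in fetal replicates 1 and 3, so both values rest on assembled transcripts alone. Whether the listed zeros reflect absence of the RNA was not tested.

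**Figure D4:**
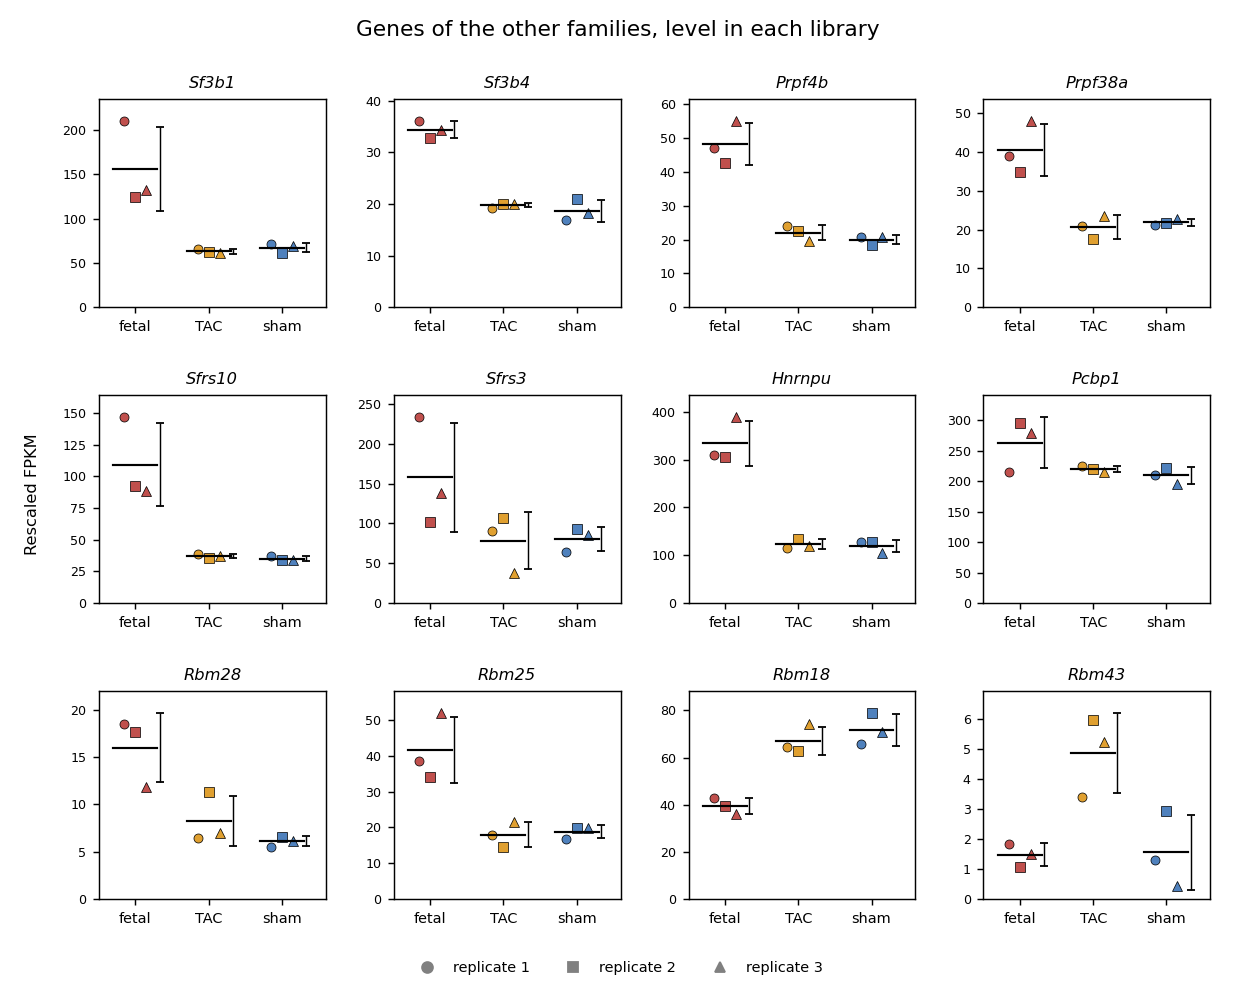
Rescaled FPKM of 12 genes of the other families in each library (points, shaped by replicate number), with the group mean (line) and SD (bar). Hnrnpu shows 306 to 389 in fetal libraries against 106 to 135 in adult libraries, Rbm18 shows 35.9 to 43.05 against 62.9 to 78.9, and Rbm43 is highest in the TAC libraries (3.40 to 5.99).

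Replicate 1 of every group came from libraries whose shortest assembled transcript was 43 nt, against 63 nt in replicates 2 and 3. Differences were therefore also taken within each replicate number. Fetal minus sham was above 0 for 44, 43 and 42 of the 48 genes in replicates 1, 2 and 3, with medians of 0.75, 0.58 and 0.71, beside medians of 0.02, 0.01 and 0.03 over all tested loci. With replicates 2 and 3 alone, 16 of 48 genes were called higher and 1 lower, beside 2261 higher and 2809 lower of 13351 loci in the same fit. Across the 48 genes the change had a Spearman correlation of -0.15 with transcript length and 0.09 with mean level, as a description over genes that share the same 9 libraries.

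The TAC and sham libraries gave no called difference for these genes, which does not show that their levels were equal. In TAC against sham ventricle, 0 of 48 genes were called by limma, beside 0.0213% of all tested loci (0.00709% higher and 0.0142% lower, 3 loci in all). An unadjusted p below 0.05 was found for 2 of the 48 genes and for 4.32% of all tested loci. The median log2 change of the 48 genes was 0.0025, beside -0.0074 over all loci, with 24 of 48 above 0. The half-width of the 95% interval had a median of 0.45, and 40 of the 48 intervals lay within a 2-fold change in either direction, 21 of them within 1.5-fold. The widths of these intervals bound what 3 libraries a group could show for each gene.

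Rbm43 had the smallest p of the 48 genes, by the unadjusted values. It had 3.40, 5.99 and 5.25 rescaled FPKM in TAC libraries, against 1.298, 2.93 and 0.439 in sham libraries, and 1.84, 1.08 and 1.52 in fetal libraries. All TAC libraries lay above all others, at low levels resting on between 7 and 44 implied fragments in the 7 libraries with a single listed transcript (TAC minus sham 1.296, SE 0.37, limma adjusted p = 1). Snrpa1 followed, with 21.6, 22.0 and 19.9 in TAC libraries, against 15.55, 17.9 and 14.5 in sham libraries (0.39, SE 0.13, limma adjusted p = 1). Neither was called under any alternative.

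The next smallest p-values belonged to Sf3a2, Prpf4 and Pcbp3. Sf3a2, an SF3A subunit, had 25.3, 30.4 and 32.6 in TAC libraries, against 23.7, 22.8 and 21.9 in sham libraries, without overlap (0.35, SE 0.18, limma adjusted p = 1). Prpf4 had 11.5, 14.5 and 12.6 in TAC libraries, against 15.8, 16.6 and 14.5 in sham libraries, the highest TAC library just below the lowest sham library (-0.26, SE 0.14, limma adjusted p = 1). Pcbp3 had 39.3, 58.4 and 40.5 in TAC libraries, against 33.7, 39.8 and 31.9 in sham libraries, with TAC replicate 1 inside the sham range (0.37, SE 0.21, limma adjusted p = 1). In all, 4 genes were higher in TAC libraries without overlap (Rbm43, Rbm15b, Sf3a2 and Snrpa1) and 1 was lower (Prpf4), beside 4.27% and 4.58% of all tested loci. Family medians lay between -0.11 (PRP) and 0.21 (Sm and snRNP). Under equal library totals the SF3 median went from 0.03 to -0.04, while the median of all tested loci went from -0.007 to -0.067. Relative to the median of all loci, the SF3 median was 0.033 before and 0.026 after.

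**Figure D5:**
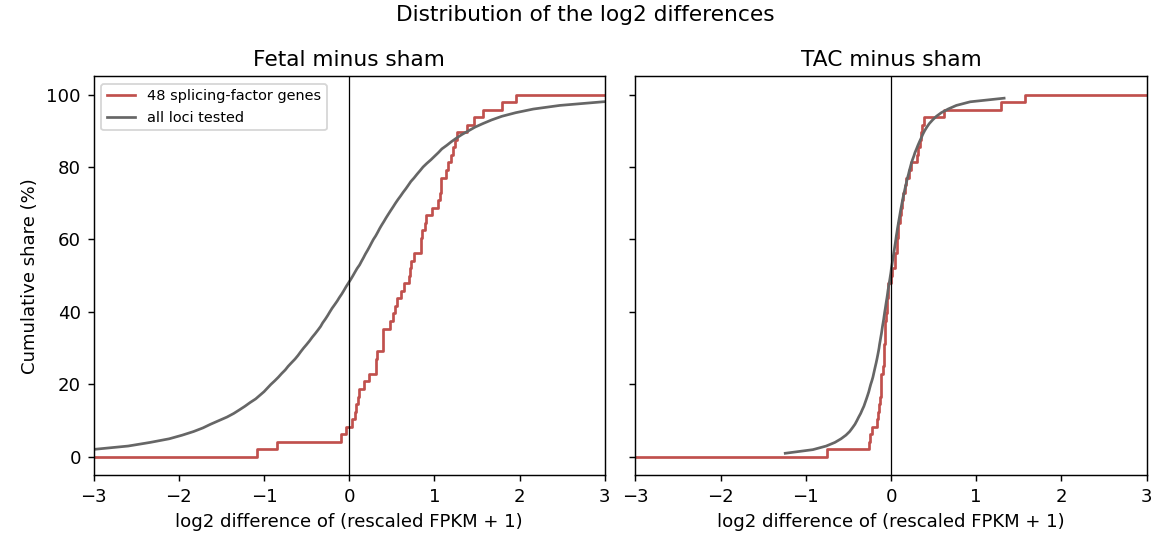
Cumulative share of genes by log2 difference, for the 48 splicing-factor genes and for the 14113 tested loci, in fetal minus sham (left) and TAC minus sham (right). On the left the median of the 48 genes is 0.71 beside 0.04, and on the right 0.0025 beside -0.0074.

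Set directly against TAC ventricle, fetal ventricle had 25 of 48 genes called higher and 2 called lower (Rbm18 and Rbm43), with a median log2 change of 0.74. Over all tested loci 22.8% were called higher, 23% lower and 45.8% in either direction, with a median of 0.03; the split of 3217 higher and 3241 lower became 3648 and 2309 under equal library totals, which moved the median of all loci to 0.24. This comparison uses the same fetal libraries as the one with sham, and both sets of values are given side by side. Snrpd1 differed by 1.95 from TAC and 1.96 from sham, Snrpa by 1.58 and 1.79, Sfrs10 by 1.496 and 1.57, Hnrnpu by 1.42 and 1.46, Sf3b1 by 1.25 and 1.17, and Snrpa1 by 0.81 and 1.19. Rbm18 differed by -0.75 and -0.85. Prpf38b was called against TAC (0.75, SE 0.23, limma adjusted p = 0.0278), a call that ended without any one fetal or TAC library (adjusted p between 0.0566 and 0.0781). Snrpe (0.76, adjusted p = 0.0818), Snrpf (0.77, adjusted p = 0.211) and Rbm45 (0.38, adjusted p = 0.125) were not called against TAC. Snrpf was called with the replicate block (adjusted p = 0.0353). Snrpe was called under equal library totals, with only the libraries compared and without sham replicate 2 (adjusted p between 0.00861 and 0.0381). Snrpb2 was called (0.66, adjusted p = 0.0401) but not with the block (adjusted p = 0.0529). Leaving out 1 library ended the calls against TAC of Snrpb2, Snrpg, Sf3b2, Sfrs9, Sfrs12, Rbm28 and Rbm34 as well (adjusted p between 0.0517 and 0.133). Rbm43 was lower in fetal than in TAC libraries (-1.23, SE 0.37, limma adjusted p = 0.0263), and lost the call without TAC replicate 2 or 3 or fetal replicate 2 or 3 (adjusted p between 0.0673 and 0.0846).

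Within loci, 14 of the 53 genes have more than 1 reference transcript, and the share of the locus held by 18 transcripts could be tested. By limma 0 of 18 shares were called in either comparison; 2 had an unadjusted p below 0.05 in fetal against sham and 1 in TAC against sham. Over all 6459 shares tested, 1.58% were called in fetal against sham and 0.0464% in TAC against sham. In fetal against sham the smallest p was for the Rbm28 transcript ENSRNOT00000007777, which held 28.9%, 0% and 0% of the locus in fetal libraries, against 40.5%, 57.2% and 68.3% in sham libraries (limma adjusted p = 0.19). The fetal shares were all below the sham shares. Each library was assembled separately, and the bearing of this on the shares was not tested. The shares of 1 group often spanned most of the range from 0% to 100%. Sfrs3 transcript ENSRNOT00000000627, for example, held 29.9%, 47.4% and 73.7% of its locus in fetal libraries.

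Other parts of the splicing machinery were followed through 2 lists of related genes. Of 80 other spliceosome and splicing factors, 45 carried a symbol and were tested, and in fetal against sham ventricle 14 were called higher and 3 lower, with a median log2 change of 0.375. Over all tested loci 22.5% were called higher and 23.2% lower, with a median of 0.04, and no test sets the list apart from them. The largest rises were those of Lsm11, a protein of the U7 snRNP (24.5 ± 0.602 in fetal and 7.05 ± 1.72 in sham libraries, 1.69), Nhp2l1, which binds U4 snRNA (69.6 ± 16.3 and 21.3 ± 6.25, 1.67) and Srrm2, a large RS-domain protein (110.3 ± 17.1 and 44.8 ± 8.31, 1.28; SD, n = 3 each). U2af1l4 (-0.92), Syf2 (-0.77) and Slu7 (-0.50) were called lower.

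The second list held 55 SR protein kinases, exon junction and export factors, snRNP assembly factors and other RNA-binding proteins, of which 31 were tested. In fetal against sham ventricle 19 were called higher and 1 lower, with a median of 0.99, beside the same 22.5% and 23.2% and median of 0.04 over all tested loci. Ncbp1, a subunit of the nuclear cap-binding complex, had 42.45, 33.15 and 37.4 in fetal libraries and 22.4 in sham replicate 1, and is listed at 0 in the other two sham libraries and in every TAC library. Whether those zeros are failed estimates or low levels was not tested. No fold is therefore given for Ncbp1, although it is among the 19 called higher. Thoc2, of the export complex THO, averaged 29.3 ± 3.85 in fetal and 7.19 ± 1.78 in sham libraries (1.90), and Gemin6, of the complex that loads Sm rings, 12.6 ± 2.5 in fetal and 3.47 ± 0.919 in sham libraries (1.61; SD, n = 3 each). The RNA-binding protein Raly was the single gene called lower (-0.60, limma adjusted p = 0.0241). In TAC against sham ventricle neither list had a called gene by limma. Medians were -0.07 for the first list and -0.015 for the second.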

How the data were processed

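RNA from 9 rat heart libraries (3 TAC, 3 fetal, 3 sham) was made into Illumina TruSeq libraries. The use of strand in counting is not stated. The submitters' processing notes name TopHat 1.3.1, Cufflinks 1.0.3, Cuffdiff and build rn4. The deposited FPKM values per gene and isoform, with confidence bounds, are as the authors computed them, multiplied by a further constant that differs between libraries, so they were rescaled here by median-of-ratios factors from the 13135 loci with a value in all libraries. A common factor set the mean library total to 1000000. Gene names differ between the separately assembled libraries. Values were therefore joined through 39492 reference transcripts, joined to 1 locus if they had a gene in common in 5 or more libraries, and assembled transcripts were added to the locus they overlap most.

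Loci reaching 1 in 3 or more libraries entered the test by limma 3.58.1 in R 4.3.3 (lmFit, eBayes with trend) on log2(value + 1), all 9 libraries and group alone in the model, 6 residual degrees of freedom. The script was tested on simulated data. Members follow the naming rule of the report. Members and lists were chosen with earlier results of these data known. Full values are given per family for the 4 largest called changes in fetal against sham, the most abundant gene and any call against the family, and for the 5 smallest p in TAC against sham. A few others were added after their values were seen. Alternatives are listed at the end. Deviations from the group means correlated between 0.136 and 0.513 in all 9 pairs of samples with the same replicate number. Pairs with different numbers lay between -0.398 and 0.277, so the ranges overlapped. The main test did not pair the libraries. The replicate number entered as a block in an alternative, and differences were also taken within each number. Implied fragment numbers were derived from the confidence bounds and are estimates.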

Additional observations from a re-analysis of the deposited data

How the results depend on the processing

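In fetal against sham ventricle the number of genes called higher, 27, was 16 when the reference transcripts alone were summed and 16 with replicates 2 and 3 alone, and lay between 17 and 28 when 1 library was left out. It was 17 without fetal replicate 1, fetal replicate 2 or sham replicate 1. Under equal library totals it was 29, beside 3329 of all tested loci called higher. Under upper quartile scaling it was 31, beside 3594. Against TAC the number higher, 25, was 15 with reference transcripts alone and lay between 18 and 26 with 1 library left out. It was 29 under equal library totals and 29 under upper quartile scaling, beside 3648 and 3662 of all tested loci. The number lower against TAC, 2, was 1 with a pseudocount of 0.1, a filter of 5, equal library totals or reference transcripts alone, and between 1 and 3 with 1 library left out. The change of Rbm28 reversed with reference transcripts alone, to -0.86 against sham and -0.98 against TAC. The cause was not tested, though over all loci that setting also called fewer in fetal against sham, 929 higher and 1125 lower against 3178 and 3275. It ended 11 calls. The log2 change was larger than before for Hnrpll (2.59), Prpf4b (2.08), Snrpf (1.57), Sfrs9 (0.89), Rbm45 (0.65) and Prpf4 (0.55), and smaller for Rbm22 (0.97), Snrpa (0.63), Sfrs12 (0.57) and Sf3b2 (0.02), besides Rbm28. Replicates 2 and 3 alone ended those of Hnrnpab, Prpf4, Rbm10, Rbm34, Rbm45, Sf3a1, Sf3b2, Sfrs9, Snrpb2, Snrpe and Snrpg. Without a filter, Sfrs9, Snrpf and Snrpg were no longer called against sham. With only the libraries compared, Prpf4, Rbm45, Sf3a1 and Snrpf were no longer called against sham, and Rbm12b was called.

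Of 28 genes called in fetal against sham, 10 were called under every alternative. These 10 were Hnrnpu, Prpf38a, Rbm17, Rbm18, Rbm25, Sf3b1, Sf3b4, Sfrs10, Snrpa1 and Snrpd1. A further 8 of the 48 tested genes were called only under an alternative. Against TAC, 12 of 27 were called under every alternative, and 10 of the 48 only under an alternative. The 5 genes that did not pass the filter are outside these counts. Without a filter, 52 genes were tested. Then 25 were called higher against sham and 25 against TAC, not all of them among the 48. With the replicate block 25 genes were called higher and 1 lower in fetal against sham, and the block changed no call other than those given in the report. In TAC against sham no gene was called under any alternative, and no transcript share was called in either comparison under those run for shares. Rbm43 rested on as few as 7 implied fragments in a library, and the bearing of depth on its calls was not tested.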
